A study of Homo sapiens with 8 samples.

Results

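The genes described here encode enzymes and packing proteins of the primary (azurophil) granules, together with other enzymes of myeloid cells. They are MPO, ELANE, AZU1, PRTN3, CTSG, LYZ, RNASE2, RNASE3, SRGN and CFD. Members were the rows of the deposited expression table that carry one of these symbols, and all 10 were found among 60664 gene rows and passed the filter on low values. The RNA came from THP-1, a monocytic leukemia line of wild-type genotype in the labels, in 4 groups of 2 libraries. Parental cells were given the solvent DMSO or 1 µM decitabine (DAC) for 6 days, and DAC-resistant cells were given the same DMSO or DAC. The resistant line was made from parental cells by repeated rounds of drug exposure and recovery, was a selected population for which no cloning is described, and was kept without drug for weeks before use, so its DMSO group held cells with past but no present exposure. The replicates are labelled as biological, with no more said of how the cultures were kept apart. Values are FPKM, which are reads scaled for gene length and library size. Reads on genes, worked back from these values as described below, summed to between 28716023 and 33415084 per library. These sums are estimates and probably too high. In every library they exceeded the total by which the FPKM were scaled, with 3.30864e+07 against 3.17105e+07 in parental DMSO replicate 1.

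Primary granules are filled early in myeloid development, when promyelocytes strongly transcribe MPO, ELANE, AZU1, PRTN3 and CTSG. The RNA of these 5 genes is normally shut off in mature cells while the stored proteins remain. The serine proteases are made as inactive precursors, are trimmed by cathepsin C, and are held in the granule on the proteoglycan serglycin. DAC is a cytidine analog that traps DNA methyltransferases once it is built into DNA, so that methylation is lost as cells divide. No methylation was measured in the values used here.

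Promoter sequence is shown for 3 of the genes because they differed in response while the first pair have nearly the same upstream sequence. The windows are from RefSeq on GRCh38.p14, run from 250 bases before to 50 bases after the annotated start, are written 5′ to 3′ on the strand of the gene, and have every CpG, the dinucleotide that can carry methylation, in capitals. RNASE3 lies at chr14:20891135-20891434 on the plus strand, RNASE2 at chr14:20955237-20955536 on the plus strand, and CTSG at chr14:24576201-24576500 on the minus strand.
RNASE3: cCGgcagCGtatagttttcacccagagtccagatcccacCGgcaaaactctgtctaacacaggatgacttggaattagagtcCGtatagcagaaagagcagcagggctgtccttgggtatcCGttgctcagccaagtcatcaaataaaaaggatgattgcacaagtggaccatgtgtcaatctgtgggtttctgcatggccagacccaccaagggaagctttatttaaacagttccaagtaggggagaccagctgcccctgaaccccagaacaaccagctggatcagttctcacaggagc
RNASE2: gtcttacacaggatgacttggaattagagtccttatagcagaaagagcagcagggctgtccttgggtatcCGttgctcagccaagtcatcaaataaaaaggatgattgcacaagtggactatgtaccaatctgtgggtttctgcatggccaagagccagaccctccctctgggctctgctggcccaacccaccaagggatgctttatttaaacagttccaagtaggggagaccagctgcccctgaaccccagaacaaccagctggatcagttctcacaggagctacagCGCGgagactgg
CTSG: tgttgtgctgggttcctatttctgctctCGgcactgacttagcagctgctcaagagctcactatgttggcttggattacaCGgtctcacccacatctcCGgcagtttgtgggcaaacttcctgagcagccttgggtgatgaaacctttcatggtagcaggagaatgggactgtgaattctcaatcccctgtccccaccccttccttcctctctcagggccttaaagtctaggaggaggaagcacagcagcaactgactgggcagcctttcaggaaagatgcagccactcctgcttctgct
The RNASE3 window held 5 CpG, the RNASE2 window 3 and the CTSG window 3, against a median of 14 over 35116 promoters of the same length. Over the 249 aligned bases the RNASE2 and RNASE3 windows were 97.2% identical, with 7 mismatches and 34 bases in internal gaps. Promoters of AZU1, PRTN3 and CFD were also in the table, with 9, 9 and 13 CpG. The letters TTGCNNAA, a core of C/EBP sites, were searched on both strands and occurred in 4 of the 6 member windows and in 10.5% of all promoters. They stood at -94 to -87 in RNASE3, at -145 to -138 in RNASE2, at -111 to -104 in AZU1 and at -62 to -55 in PRTN3. The AZU1 positions refer to the start in its RefSeq window, chr19:827587-827886, which lies inside the gene interval given below. GAGGAA, a PU.1 core, was found in CTSG at -46 to -41 and at -16 to -11 and in PRTN3 at -88 to -83, and 27.9% of all promoters held it. The letters TGTGGT (RUNX), TAACNG (MYB) and TTCNNNGAA (GAS-like) and the ISRE-like motif had no match in the 6 windows, and occurred in 13.1%, 20.8%, 7.66% and 3.57% of all promoters. A match is a description of the letters and says nothing of binding.

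Together the 10 genes made up 0.694% and 0.695% of all gene FPKM in the parental DMSO libraries. The share was 0.902% in both parental DAC libraries, 0.634% and 0.638% in DAC-resistant DMSO libraries, and 0.590% and 0.580% in DAC-resistant DAC libraries. The parental DAC libraries were thus the highest and the DAC-resistant DAC libraries the lowest. SRGN and RNASE2 were the most abundant in all 8 libraries, SRGN between ranks 18 and 40 of all genes and RNASE2 between 32 and 71. MPO was at the other end, between ranks 6280 and 14216.

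**Figure D1:**
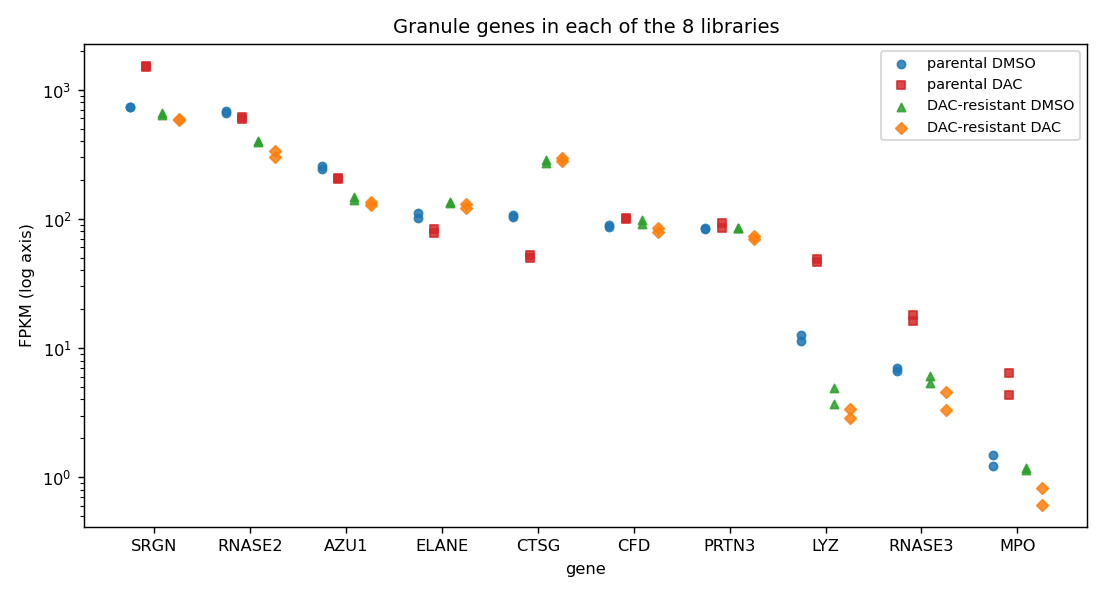
FPKM of the 10 genes in each of the 8 libraries on a log axis, 1 point a library, coloured by group. LYZ, RNASE3 and MPO stand highest in both parental DAC libraries, CTSG stands lowest there and highest in DAC-resistant cells, and PRTN3 and CFD stay between 69.3 and 102 FPKM throughout.

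DAC changed the granule genes of parental cells in opposite directions. MPO, LYZ, RNASE3 and SRGN rose and CTSG fell, while ELANE, AZU1, RNASE2, PRTN3 and CFD moved by less than the 1 log2 unit that a call needed. A gene was called where limma gave an unadjusted p no higher than 0.01 and a log2 fold change of 1 or more in either direction. Fold changes are on the log2(FPKM + 1) scale, which understates the change of low genes. By this rule 5 of the 10 genes were called, against 9.31% of all 14899 genes tested. CTSG and SRGN lay near the size rule, and some alternatives given below lost the call of one or the other, with the direction kept. The median log2 fold change over all 10 was 0.14, beside 0.06 over all genes tested. Upper-quartile scaling shifted the single genes by a median of -0.12 in this comparison, and the median of the members became 0.001. With 2 libraries a group no exact permutation test could go below 0.333. The limma p-values draw on each gene's own spread, taken as equal in the 4 groups, and in part on a spread estimated over many genes.

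In DAC-resistant cells the same DAC treatment gave 0 called members, against 0.235% of all genes. At an unadjusted p under 0.05 in limma, 7 members were lower with DAC and 0 higher, where 12.6% of all genes were lower and 14.4% higher at that p, and limma voom on reads recovered from the FPKM steps also called 0. The member values ran from -0.46 (RNASE3) to 0.06 (CTSG), with a median of -0.22 beside 0.01 over all genes. At an adjusted p under 0.05 in limma, PRTN3, RNASE2 and SRGN were lower, where 5.35% of all genes were lower and 5.88% higher.

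Without drug, DAC-resistant and parental cells differed most in CTSG, which was higher in the resistant cells, and LYZ, which was lower. These were the 2 members called, against 8.73% of all genes, and the member median was -0.15 beside 0.02. Under DAC, 5 members were called between the cell lines, against 14.5% of all genes, CTSG higher and LYZ, MPO, RNASE3 and SRGN lower in resistant cells. The difference between the DAC effects in the cell lines was called for the same 5 genes, against 10.6% of all genes. Each library serves in several of these comparisons, so their values stand side by side and are not independent.

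**Figure D2:**
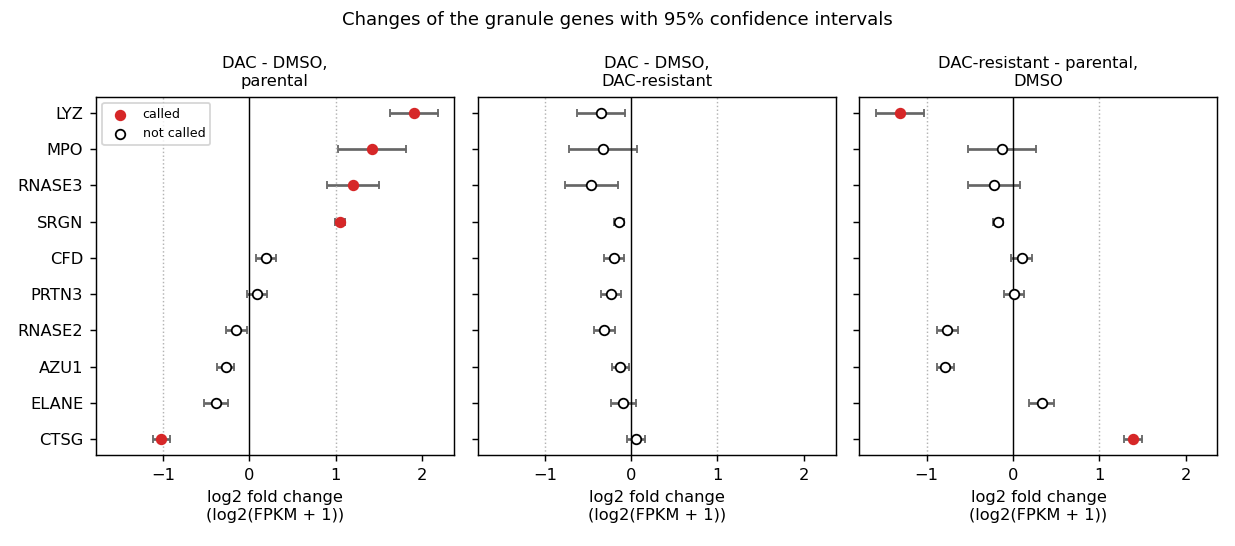
Log2 fold change of each gene on the log2(FPKM + 1) scale for DAC in parental cells, DAC in DAC-resistant cells, and DAC-resistant against parental cells in DMSO, with limma 95% confidence intervals and dotted lines at a change of 1. Red points are called: 5 in the first panel, 0 in the second and 2 in the third.

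MPO encodes myeloperoxidase, which makes hypochlorous acid and is the defining enzyme of the azurophil granule. It lies at chr17:58269855-58280935 on the minus strand of hg38 (ENSG00000005381). Its FPKM was 1.22 and 1.496 in parental DMSO, 6.43 and 4.34 in parental DAC, 1.19 and 1.13 in DAC-resistant DMSO, and 0.826 and 0.611 in DAC-resistant DAC. Both parental DAC libraries lay above all the others, and in every library MPO was the lowest of the 10 genes. The values rested on few reads, 136 and 160 in parental DMSO and 93 and 66 in DAC-resistant DAC. These reads rest on an inferred length of 3527 bases, the nearest to the annotated exon length of 4427 that gave whole reads in every library. In parental cells MPO was 3.97-fold higher in mean FPKM with DAC (log2 fold change 1.42, SE 0.16, limma adjusted p = 0.000416). In DAC-resistant cells the change was -0.33 (SE 0.16, limma adjusted p = 0.259), and -0.70 in voom on the recovered reads, where MPO was not called either. The change differed between the cell lines by -1.75 in limma on FPKM and by -2.67 in voom on the recovered reads.

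AZU1, PRTN3, ELANE and CFD lie next to each other on chromosome 19. AZU1 (chr19:825097-832018, ENSG00000172232), PRTN3 (chr19:840999-848175, ENSG00000196415), ELANE (chr19:851014-856247, ENSG00000197561) and CFD (chr19:859453-867884, ENSG00000197766) are all on the plus strand and span 42.8 kb, with 8.98, 2.84 and 3.21 kb between one gene and the next. AZU1 and ELANE differed in opposite directions between the cell lines, while PRTN3 stood to CFD at 0.836 to 0.979 in all 8 libraries.

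AZU1 encodes azurocidin, a relative of elastase that has lost protease activity and draws in monocytes. Its FPKM was 241 and 255 in parental DMSO, 202 and 209 in parental DAC, 147 and 141 in DAC-resistant DMSO, and 135 and 129 in DAC-resistant DAC. The 4 groups did not overlap, and both resistant groups lay below both parental groups. Between the cell lines in DMSO the log2 fold change was -0.78 (SE 0.04, limma adjusted p = 1.29e-05), a mean FPKM of 57.9% of the parental one, which missed the size needed for a call. Its DAC effect in parental cells was -0.27, and quantile normalization turned this to 0.06.

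ELANE encodes neutrophil elastase, the protease that digests elastin and bacterial proteins. It measured 101 and 111 FPKM in parental DMSO, 78.1 and 83.5 in parental DAC, 134 and 133 in DAC-resistant DMSO, and 131 and 121 in DAC-resistant DAC. ELANE was lowest in the parental DAC libraries and higher in the resistant cells, the reverse of its neighbour AZU1 across the cell lines. Against parental cells in DMSO the resistant cells were higher by 0.33 on the log2 scale (SE 0.06, limma adjusted p = 0.00314). With DAC parental cells changed by -0.39 (SE 0.06, limma adjusted p = 0.00154) and resistant cells by -0.09 (limma adjusted p = 0.399).

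PRTN3 encodes proteinase 3, the target of the autoantibodies in granulomatosis with polyangiitis. Its FPKM was 83.0 and 84.2 in parental DMSO, 93.3 and 85.1 in parental DAC, 84.3 and 84.3 in DAC-resistant DMSO, and 74.0 and 69.3 in DAC-resistant DAC. The first 3 groups lay close together and the last lay below them. With DAC the log2 fold change was 0.09 (95% confidence interval -0.03 to 0.21) in parental cells, where upper-quartile scaling gave -0.05, and -0.23 in resistant cells (limma adjusted p = 0.0316).

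CFD encodes complement factor D, the serine protease that cleaves factor B in the alternative pathway of complement. It measured 90.1 and 86.1 FPKM in parental DMSO, 99.9 and 102 in parental DAC, 98.3 and 90.7 in DAC-resistant DMSO, and 85.05 and 79.6 in DAC-resistant DAC. Its groups lay close together, with the parental DAC libraries above the rest. The DAC effect was 0.19 (limma adjusted p = 0.014) in parental cells and -0.20 (limma adjusted p = 0.0522) in resistant cells, and these effects differed by -0.39 (limma adjusted p = 0.00397).

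Around this cluster, PTBP1, PLPPR3, MED16 and R3HDM4, the tested genes next to it, had DAC effects of 0.13, 0.15, 0.05 and -0.01 in parental cells. Of 22 tested genes in a list of chromosome 19 neighbours, 1 was called in parental cells with DAC, by limma, and it was lower, beside 2.64% of all genes called lower, with a list median of 0.13. It was PALM, which encodes paralemmin, a membrane protein that shapes cell processes (5.94 ± 0.592 FPKM to 2.03 ± 0.00592, SD, n = 2). HCN2, a channel gene, was the 1 of 22 called between the cell lines in DMSO, at -1.18, beside 4.28% of all genes called lower.

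**Figure D3:**
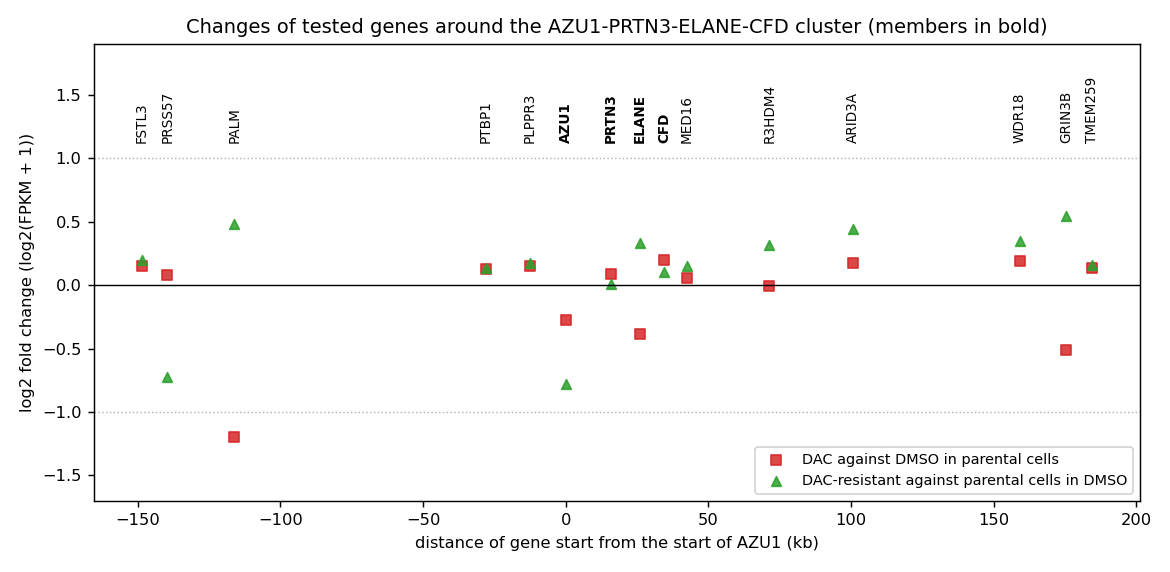
Log2 fold change on the log2(FPKM + 1) scale of the tested genes within 150 kb of the AZU1, PRTN3, ELANE and CFD cluster against distance from the start of AZU1 in kb, for DAC in parental cells (squares) and DAC-resistant against parental cells in DMSO (triangles). AZU1 at -0.78 and ELANE at 0.33 between the cell lines stand on opposite sides of 0, and PALM at -1.20 is the lowest square.

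CTSG encodes cathepsin G, a serine protease of broad specificity that is related to the granzymes and to mast cell chymase. It lies at chr14:24573518-24576250 on the minus strand (ENSG00000100448), and its promoter is the last one printed above. Its FPKM was 103 and 108 in parental DMSO, 52.8 and 50.01 in parental DAC, 283 and 272 in DAC-resistant DMSO, and 296 and 281 in DAC-resistant DAC. All 4 resistant libraries lay above all parental ones, the parental DAC libraries were lowest, and the resistant groups overlapped each other. With DAC the parental mean fell to 48.9% (log2 fold change -1.02, SE 0.04, limma adjusted p = 4.61e-06). This call lies at the edge of the size rule: it was -0.98 without parental DAC replicate 2, -0.99 without parental DMSO replicate 2 and -0.999 with quantile normalization, each too small for a call. In DAC-resistant cells the DAC effect was 0.06 (95% confidence interval -0.05 to 0.16). Between the cell lines the log2 fold change was 1.39 in DMSO (limma adjusted p = 1.69e-06) and 2.47 in DAC (limma adjusted p = 1.24e-07). CMA1, GZMH and GZMB, its neighbours among the proteases, averaged 0.189 FPKM at most in any group.

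The ratio of CTSG to ELANE within a library was 1.02 and 0.969 in parental DMSO and 0.676 and 0.599 in parental DAC. In resistant cells it was 2.11 and 2.04 in DMSO and 2.26 and 2.33 in DAC. Scaling a library by a single factor cannot move such a ratio, and none of the 4 groups overlapped. AZU1 stood to ELANE at 2.39 and 2.30 in parental DMSO, 2.59 and 2.50 in parental DAC, 1.10 and 1.06 in DAC-resistant DMSO, and 1.03 and 1.07 in DAC-resistant DAC, so that this ratio set the cell lines further apart than the treatments. In DMSO the order of levels in parental cells was SRGN, RNASE2, AZU1, ELANE, CTSG, CFD, PRTN3, LYZ, RNASE3 and MPO, with ELANE and CTSG overlapping. In resistant cells CTSG stood behind SRGN and RNASE2 and above AZU1 and ELANE, and RNASE3 stood above LYZ.

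LYZ encodes lysozyme, which splits the peptidoglycan of bacterial walls and is made by monocytes in quantity. It lies at chr12:69348381-69354234 on the plus strand (ENSG00000090382). It measured 11.4 and 12.6 FPKM in parental DMSO, 46.7 and 48.9 in parental DAC, 3.69 and 4.88 in DAC-resistant DMSO, and 3.38 and 2.88 in DAC-resistant DAC. The groups did not overlap, and every resistant library lay below every parental one. DAC raised the parental mean 3.97-fold (log2 fold change 1.91, SE 0.12, limma adjusted p = 2.33e-05), whereas resistant cells changed by -0.35 (limma adjusted p = 0.111). Between the cell lines the log2 fold change was -1.31 in DMSO (limma adjusted p = 0.000123) and -3.57 in DAC (limma adjusted p = 9.81e-07), the largest among the 10 genes there. LYZ stood to CTSG at 0.884 and 0.978 in parental DAC and at 0.0114 and 0.0103 in DAC-resistant DAC.

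RNASE2 and RNASE3 encode the eosinophil-derived neurotoxin and the eosinophil cationic protein, secreted ribonucleases with antiviral and membrane-damaging activity. RNASE3 (chr14:20891385-20892348, ENSG00000169397) and RNASE2 (chr14:20955487-20956436, ENSG00000169385) are both on the plus strand, 63.1 kb apart. Their transcripts were 88.8% identical over 717 aligned bases, with a longest shared run of 67 bases, so reads may be split between them and the lower RNASE3 values are uncertain to that extent.

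RNASE2 measured 686 and 655 FPKM in parental DMSO, 615 and 593 in parental DAC, 389.9 and 401 in DAC-resistant DMSO, and 302 and 334 in DAC-resistant DAC. Resistant libraries lay below parental ones and DAC libraries below DMSO ones in each cell line. Between the cell lines in DMSO the log2 fold change was -0.76 (SE 0.05, limma adjusted p = 3.58e-05), and under DAC -0.92, with -1.03 in quantile normalization, which passes the size rule. Its DAC effect was -0.31 in resistant cells (limma adjusted p = 0.0142) and -0.15 in parental cells (limma adjusted p = 0.0407), the latter turned to 0.19 by quantile normalization.

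RNASE3 measured 6.66 and 7.01 FPKM in parental DMSO, 16.1 and 18.0 in parental DAC, 5.40 and 6.07 in DAC-resistant DMSO, and 4.57 and 3.29 in DAC-resistant DAC. Parental DAC libraries stood above all the others, as for MPO and LYZ, and not as for RNASE2. DAC raised RNASE3 2.49-fold in parental cells (log2 fold change 1.20, SE 0.13, limma adjusted p = 0.000281), and its change in resistant cells was -0.46 (limma adjusted p = 0.0684). The recovered reads of RNASE3 were few, 155 and 156 in parental DMSO and 107 and 74 in DAC-resistant DAC. The ratio of RNASE2 to RNASE3 was 103 and 93.5 in parental DMSO and 38.3 and 33.0 in parental DAC, and in resistant cells 72.3 and 66.0 in DMSO and 66.2 and 101.5 in DAC. The parental DAC libraries were the lowest, and the resistant groups overlapped. Of 9 other genes of the RNase A family, 6 stayed under the filter. RNASE6 was called higher in parental cells with DAC (log2 fold change 1.05, limma adjusted p = 0.000657), where 6.66% of all genes tested were. That call was lost under upper-quartile scaling (0.93) and quantile normalization (0.97). RNASE6 went from 1.82 ± 0.463 to 4.79 ± 0.00161 FPKM (SD, n = 2), and RNASE1, which reached 1 FPKM only in parental DAC, was listed at 0 in both parental DMSO libraries and measured 5.24 ± 0.616 FPKM with DAC. On the same stretch of chromosome 14 RNASE6 and RNASE1 start at -110.1 and -90.2 kb from the start of RNASE3.

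SRGN encodes serglycin, the proteoglycan core on which granule proteases are packed. It lies at chr10:69088103-69104805 on the plus strand (ENSG00000122862). It measured 734 and 729.7 FPKM in parental DMSO, 1525.5 and 1506 in parental DAC, 637 and 664 in DAC-resistant DMSO, and 589 and 586 in DAC-resistant DAC. Parental DAC libraries lay well above all the others, which formed a narrow band. DAC raised SRGN 2.07-fold in parental cells (log2 fold change 1.05, SE 0.02, limma adjusted p = 3.51e-07), a call that upper-quartile scaling lost at 0.91. In resistant cells its log2 fold change was -0.15 (limma adjusted p = 0.016). SRGN was 1.07 and 1.11 times RNASE2 in parental DMSO and 2.48 and 2.54 times in parental DAC. In resistant cells it was 1.63 and 1.65 times RNASE2 in DMSO and 1.95 and 1.75 times in DAC, above parental DMSO and below parental DAC.

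The processing and control genes around the granule moved as follows. CTSC, the protease that activates the serine proteases, went from 9.77 ± 0.172 to 13.7 ± 0.600 FPKM in parental cells with DAC (log2 fold change 0.45), and was 6.93 ± 0.0121 in resistant cells with DMSO (SD, n = 2). SERPINB1, an inhibitor of elastase, proteinase 3 and cathepsin G, was 16.5 ± 0.349 FPKM in parental DMSO and 10.0 ± 0.293 in resistant DMSO (log2 fold change -0.66), and 14.2 ± 0.0391 in resistant DAC (log2 fold change 0.46), none of these changes being called. CEBPE, the C/EBP factor of late granulocyte development, went from 1.25 ± 0.116 to 12.02 ± 0.752 FPKM in parental cells (log2 fold change 2.53, limma adjusted p = 2.34e-05). CEBPA was at 80.7 ± 3.16, 96.8 ± 3.08, 88.5 ± 6.19 and 90.4 ± 1.41 FPKM in the 4 groups. GFI1, a repressor that acts in granulocyte precursors, was at 64.3 ± 1.53, 50.2 ± 0.154, 88.4 ± 0.702 and 84.7 ± 0.314 FPKM (SD, n = 2), an order across the groups like that of ELANE.

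Other granule and myeloid lists are described by the counts of called genes in parental cells with DAC. Over all genes tested, 652 reached 1 FPKM only in the parental DAC libraries and so had to be higher there. These are left out of the list counts (chosen with the values in view), and 4.08% of the other 14247 genes were called higher. Of 15 other primary granule genes 4 were not tested and 1, BPI, was left out, and 4 of the remaining 10 were called higher (median 0.78), NEU1 at 1.74, FUCA1 at 1.47 and ACP2 at 1.24 among them. NEU1 and FUCA1 remove sialic acid and fucose, and ACP2 is a lysosomal phosphatase. Secondary and tertiary granule genes, 22 listed, gave 6 higher of 10 (median 1.06), led by MMP9, gelatinase B, at 5.77 (1.16 ± 0.246 to 116 ± 0.0722 FPKM, SD, n = 2), with CYBB at 2.42. Lysosomal cathepsins, 12 listed, gave 7 higher of 10 (median 1.29), CTSD at 2.84 and CTSA at 1.95. S100 genes, 8 listed, gave 2 higher of 7 (median 0.19), S100A9 at 4.63 and S100A8 at 3.82, the subunits of calprotectin. NADPH oxidase genes gave 3 higher of 7 (median 0.86). Complement genes, 11 listed, gave 2 higher of 6 (median 0.39), with C3AR1 at 2.52, and granule processing and sorting genes, 25 listed, 2 of 23 (median 0.15), UNC13D at 2.72 and CALR at 1.54, a chaperone that helps fold the myeloperoxidase precursor. Transcription factors, 23 listed, gave 6 higher of 21 (median 0.31), among them GATA2 at 3.06 and CEBPE at 2.53. Protease inhibitors, 18 listed, were mixed, 5 higher of 13 (median -0.22), SERPINA1, the antitrypsin that blocks elastase, at 2.92 and CST7, an inhibitor of cysteine proteases, at 2.66, with 1 called lower, CSTA at -1.19. Some of these counts moved with the scaling. Under upper-quartile scaling 3 of 10 other primary granule genes, 5 of 10 secondary and tertiary granule genes, 6 of 10 cathepsins and 1 of 6 complement genes were called higher, beside 3.42% of all genes left in. NADPH oxidase genes gave 2 of 7 there and under TPM, with CYBA at 1.00 in the FPKM fit, and under TPM secondary and tertiary granule genes gave 5 of 10, beside 5.61%. Under quantile normalization, beside 3.63%, S100 genes gave 3 of 7 and other primary granule genes 5 of 9. Several of these lists share genes, and CYBB and CYBA stand in 2 of them.

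Granule genes of other cell types were mostly under 1 FPKM outside the parental DAC libraries. Of 10 eosinophil and mast cell granule genes, 5 stayed under the filter and the other 5 reached 1 FPKM only in parental DAC, so their direction follows from the filter and is given as levels. PRG2, the major basic protein, was listed at 0 in both parental DMSO libraries and measured 10.9 ± 0.944 FPKM with DAC, and HDC, which makes histamine, measured 0.0499 ± 0.0133 and 4.61 ± 0.325 (SD, n = 2). Of 8 lymphoid granule genes, 6 stayed under the filter. PRF1, which encodes perforin, measured 0.0313 ± 0.0443 FPKM in parental DMSO and 2.75 ± 0.256 in parental DAC. It reached 1 FPKM in parental DAC only. NKG7 was called higher at 1.41 (5.67 ± 0.749 to 16.7 ± 0.341 FPKM, SD, n = 2).

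DAC in resistant cells gave 1 called gene among the 146 tested over all of these lists, a share of 0.685% beside 0.235% of all genes, and a single gene is near that background. It was ORM1 at 1.13, which encodes an acute phase protein of secondary granules (23.4 ± 1.19 to 52.2 ± 2.20 FPKM, SD, n = 2). Between the cell lines in DMSO, 1 of 11 other primary granule genes was called by limma, ARSB at -1.03, which removes sulfate from glycosaminoglycans, where 4.28% of all genes were called lower and 4.45% higher. A single gene of 11 is near that background. Leaving out SERPINB2, which reached 1 FPKM only in parental DMSO, 2 of 13 inhibitors tested were lower, SERPINB10 at -2.13 and SERPINB8 at -1.56, beside 588 of all 14715 genes left in. Of 24 sorting genes tested 3 were higher, UNC13D at 2.78, RAB27A at 1.34 and SLC37A4 at 1.18. RAB27A and UNC13D dock and release secretory granules. Complement genes were lower in 3 of 7, C3 at -2.73, C5AR1 at -1.98 and CD55 at -1.11, while CFD, the member of that pathway, was not called.

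Markers of cell types were checked in the same libraries. Summed FPKM of 10 monocytic markers was 223 to 234 in parental DMSO, 249 to 263 in parental DAC, 162 to 166 in resistant DMSO and 156 to 159 in resistant DAC, and 7, 9, 7 and 7 of the 10 reached 1 FPKM. In parental cells with DAC, leaving out CD86, which reached 1 FPKM only there, 2 of the 8 others tested were called higher, CD14 and CD36, beside 4.08% of all genes left in. CD14 went from 1.52 ± 0.0895 to 19.9 ± 1.32 FPKM, while CD4 went from 157 ± 8.12 to 123 ± 2.80 (log2 fold change -0.34) and CD33 from 9.83 ± 0.128 to 7.86 ± 0.346 (log2 fold change -0.29, SD, n = 2), and CD163 stayed under the filter. Summed neutrophil markers were 36.2 to 37.6, 18.7 to 18.8, 13.5 to 14.2 and 13.5 to 13.8 FPKM in the same order, nearly all from CSF3R and CXCR2, and FCGR3B was at most 0.111 in the mean. T and NK markers summed to 5.15 to 6.19 in parental DMSO, 16.9 to 17.7 in parental DAC and at most 2.76 in resistant cells, nearly all NKG7, and B and plasma cell markers stayed between 4.6 and 8.93 and erythroid markers between 2.56 and 7.11 in all libraries. The part of these markers in the changes of the granule genes was not tested, and fewer cells of a type and less RNA per cell cannot be told apart in these bulk libraries.

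The genes most like each member over the 8 libraries were taken from 3607 tested genes whose group means spanned at least 1 on the log2 scale. They are given by Pearson r as a description, and libraries of a group share their treatment. CTSG was most like DENND3, TMED10 and MEIOB (0.999 each), SRGN like SAMD9L (0.999), RHEX and HMOX1 (0.998 each), and LYZ like MRPS6, LPXN and LPIN2 (0.997 each). AZU1 was most like TARBP1 (0.997), CLEC11A (0.996) and BLVRB (0.995), and RNASE2 like RECQL (0.998), STING1 and DDX11 (0.989 each). Among the genes most like RNASE3 were MOV10 and GM2A (0.986 each), and MPO was most like NFKBIB (0.992), CD200R1 (0.991) and SENCR (0.990). ELANE was most like CENPI (0.991) and COPZ1 (0.987), with an unnamed gene between them at 0.989. PRTN3 and CFD, which hardly varied, had the weakest partners: TUBB4B and HSPA8 (0.908 each) and HSP90AA1 (0.892) for PRTN3, and CCL4L2 (0.959) and C4orf48 (0.943), followed by an unnamed gene at 0.938, for CFD.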

How the data were processed

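Gene expression was measured by RNA-seq in THP-1 cells, parental or DAC-resistant, after 6 days in DMSO or 1 µM DAC, with 2 libraries a group. The authors trimmed reads with cutadapt 1.9.1, aligned them to hg38 with HISAT2 2.1.0, counted genes with HTSeq 0.13.5 and deposited FPKM values, multiplied by 1000. Whether counting used the strand is not given in the sources used here. Per the labels, groups were read from sample titles and treatments.

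The factor of 1000 was removed, 1 was added and log2 was taken. Genes were kept where 2 or more of the 8 libraries reached 1 FPKM, which left 14899. Using limma 3.58.1 (R 4.3.3), a mean for each of the 4 groups was fitted, with 2.5 prior and 4 residual degrees of freedom. Called genes had p no higher than 0.01 and an absolute log2 fold change of 1 or more. The Benjamini-Hochberg adjustment ran over all 14899 genes. Members and gene lists were chosen with earlier results of these data known. Named were all members, called genes of each list (at most 4 per list and comparison), CTSC, SERPINB1, CEBPE, CEBPA and GFI1, and the 3 genes most alike each member. Some genes that this rule names are not reported here. Nearest neighbours of the chromosome 19 and CTSG loci and a few markers were also named, chosen after their values were seen. Repeat families (1264 rows) were not used.

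Whole reads were recovered from the FPKM steps with GENCODE 44 exon lengths for 86.5% to 87.0% of gene values (within 0.01 of a whole number). For MPO and CFD, whose annotated length gave no whole reads, the nearest length that did was used. For CFD this was 1212 bases, but a longer length was also possible, so its recovered reads are uncertain and not printed. The count test, voom, was an alternative on all 14899 genes, where values that did not give whole reads were rounded. It called 2189, 54, 2348, 3316 and 2225 genes in the 5 comparisons, in the order of the report. Libraries of a group differed by a chi-square of 3.92 to 4.16 per gene, more than counting noise. On simulated data for DAC in parental cells, 97.5% of 200 of 14899 genes changed by 1.5 were called, with 19 unchanged ones. Alternatives tried were another pseudocount, filter, scaling, variance, threshold, fit or test, the replicate block and leaving out each library. Alignments used Biopython 1.88.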

Additional observations from a re-analysis of the deposited data

Results flagged for a closer look

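The effect of DAC differed between parental and DAC-resistant cells for 5 of the 10 genes, beside 10.6% of all genes tested, by the interaction term of the same limma fit on log2(FPKM + 1). The difference, resistant minus parental, was -2.26 for LYZ, -1.75 for MPO, -1.66 for RNASE3, -1.20 for SRGN and 1.08 for CTSG, with Benjamini-Hochberg adjusted p-values of 8.51e-05, 0.00109, 0.000447, 1.78e-06 and 2.88e-05 over all genes. For LYZ, MPO, RNASE3 and SRGN both parental DAC libraries lay above both parental DMSO libraries, while both resistant DAC libraries lay below both resistant DMSO libraries. The resistant libraries lay in this order for every member except CTSG, and none of those changes was called. The share of all genes that part in this way is not given here. For CTSG the parental DAC libraries lay below the DMSO ones, while the resistant groups overlapped. Voom on recovered reads gave -2.43 for LYZ, -2.67 for MPO and -1.86 for RNASE3.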

How the results depend on the processing

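The counts of called genes were 5, 0, 2, 5 and 5 in the 5 comparisons and ran from 4 to 5, 0 to 0, 2 to 2, 4 to 6 and 4 to 5 over all alternatives. In the last 2 the low of 4 came from the filter on a mean of 5 FPKM alone, under which MPO was not tested. Of single values, 764 kept direction and call, 6 turned, 4 lost a call and 1 gained one. Turned were PRTN3 with DAC in parental cells to -0.0506 under upper-quartile scaling, and under quantile normalization AZU1 to 0.0583 and RNASE2 to 0.186 with DAC in parental cells, PRTN3 to -0.0939 and CFD to -0.00548 between the cell lines in DMSO, and AZU1 to -0.212 in the difference of the DAC effects. The cause was not tested. With DAC in parental cells, SRGN lost its call at 0.907 (upper quartile) and CTSG at -0.999 (quantile), -0.985 (without parental DMSO replicate 2) and -0.981 (without parental DAC replicate 2), and RNASE2 between the cell lines in DAC gained one at -1.03 (quantile). Upper-quartile scaling shifted the single genes by a median of -0.12 with DAC in parental cells, 0.14 between the cell lines in DAC and 0.11 in the difference of effects. The median shift was -0.10 under quantile normalization in the first, and 0.12 under TPM in the second.

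Over all genes, 1387, 35, 1300, 2154 and 1583 were called. A pseudocount of 0.1 gave 2097, 107, 2263, 3249 and 2209, a filter on a mean of 5 FPKM 573, 6, 517, 908 and 721, where fewer genes were tested, and TPM, where more passed the filter, 2777, 179, 2586, 4193 and 2797. Without moderation 17 were called with DAC in resistant cells. The share called higher with DAC in parental cells was 71.6%, and 60.5% under upper-quartile scaling, and between the cell lines in DAC 36.6% and 49.4%. Replicate numbers did not pair the libraries (correlations of deviations from -0.0218 to 0.0198). A fit with the replicate block gave 5, 0, 2, 5 and 5 members and 1388, 35, 1293, 2152 and 1586 genes. Few reads limit MPO and RNASE3.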
